A study of Mus musculus with 8 samples.

Results

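The 33 genes described here encode the proteins that form blood clots and dissolve them. They comprise the clotting factors, the fibrinogen chains, the contact system, the natural anticoagulants, the plasminogen system and von Willebrand factor. They were taken by symbol from a deposited table of 22183 mouse genes; all 33 were found, and all 33 passed the low-count filter that left 12722 genes for testing. The livers came from C57 mice, an inbred strain, and their mRNA was sequenced in 8 libraries. CTRL (n = 2) carries the label control; the treatment text attached to it is the same as for the other libraries, so that it is read as liver without APAP from this label alone, and whether it received PBS is not stated. APAP_PBS (n = 3) received 400 mg/kg of APAP (acetaminophen, as the abbreviation is commonly used) by intraperitoneal injection, with PBS (buffered saline). APAP_MSC (n = 3) received that dose and, 4 hours later, tail vein MSCs, an abbreviation commonly used for mesenchymal stromal cells. Livers were collected at 24 hours. Age and sex are not in the labels. Nor is it stated that each library is a different mouse, and the p-values therefore reflect only variation among these libraries, which may be technical.

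Acetaminophen in overdose injures hepatocytes, and the hepatocyte is the source of most plasma clotting proteins. In clotting, tissue factor (F3) on cells outside the bloodstream binds factor VII and activates factor X, and the intrinsic route through factors XII, XI, IX and VIII reaches factor X as well. Factor X with factor V turns prothrombin (F2) into thrombin, thrombin cuts fibrinogen into fibrin, and factor XIII crosslinks it. Antithrombin (Serpinc1), protein C and tissue factor pathway inhibitor limit these steps, and plasmin, made from plasminogen, dissolves fibrin. Fibrinogen is a classical acute phase protein that liver makes more of under interleukin-6, acting through the transcription factor STAT3.

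Library totals ran from 16261191 to 24516470 estimated counts. Counts of libraries in one group gave a chi-square per degree of freedom of 13.4 to 69.7, far above sampling noise, so each library was kept as 1 replicate. The 6 hepatocyte markers found (Alb, Ttr, Apoa1, Cps1, Apob and Hnf4a) were detected in every library, with summed levels of 93376 to 109350 CPM in CTRL, 72197 to 85086 CPM in APAP_PBS and 76987 to 85494 CPM in APAP_MSC. This sum is mostly Alb, and on the FPKM scale it overlapped, at 42948 to 46294, 36842 to 43955 and 35491 to 44688. Of the 6, Ttr was called lower in APAP_PBS against CTRL (-0.56 ± 0.13, edgeR adjusted p = 0.0214). At an unadjusted p under 0.05, edgeR had 4 of the 6 lower and 1 higher there, beside 13.4% of all genes in each direction. In APAP_MSC against CTRL it had 3 lower and 1 higher, beside 11.1% and 10.6%. The median log2 fold change of the 6 was -0.35 in APAP_PBS and -0.29 in APAP_MSC. Apob and Hnf4a had values of 0.11 and 0.40 in APAP_PBS and were not called. The symbol Tf was the only listed hepatocyte marker without a match in the table. Mouse transferrin has the symbol Trf, so this does not show that transferrin was absent. In whole tissue, fewer cells of a type and less RNA per cell cannot be told apart. CPM below means counts scaled by TMM-adjusted library size, which compensates for differences in library composition, and values for a group are given in the order of its replicate numbers.

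The fibrinogen genes and antithrombin had the highest levels per transcript length. By FPKM, the deposited value scaled to gene length, the highest CTRL means were those of Fgg at 2437 ± 582, Fga at 1789 ± 107, Serpinc1 at 1454 ± 205 and Fgb at 1103 ± 175 (SD, n = 2). The ranges of 1 SD overlapped for Fgg and Fga and for Serpinc1 and Fgb, but not for Fga and Serpinc1. Kng1, a source of bradykinin, Plg (plasminogen) and F2 followed at 788 ± 107, 711 ± 107 and 649 ± 112 FPKM, and these 3 did not differ beyond their spread. Below them, Pros1 (protein S, a cofactor of protein C) at 15.2 ± 0.945 FPKM stood above Tfpi (tissue factor pathway inhibitor) at 2.60 ± 0.306 FPKM. Below Pros1 came the members made largely by cells other than hepatocytes, down to F13a1 at 0.0215 FPKM. In APAP_PBS and APAP_MSC the order of the first 3 became Fgg, Fga and Fgb, ahead of Serpinc1. The 33 genes together held 2.40% and 2.33% of all counts in the CTRL libraries, 4.30%, 3.99% and 4.64% in APAP_PBS, and 4.45%, 4.16% and 4.46% in APAP_MSC. Most of this rise was fibrinogen. Summed FPKM of the 33 was 11370 and 11178 in CTRL and 18368 to 21225 in the APAP libraries. That of the 3 fibrinogen genes among them was 5940 and 4718 in CTRL and 11537 to 14152 in the APAP libraries.

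**Figure D1:**
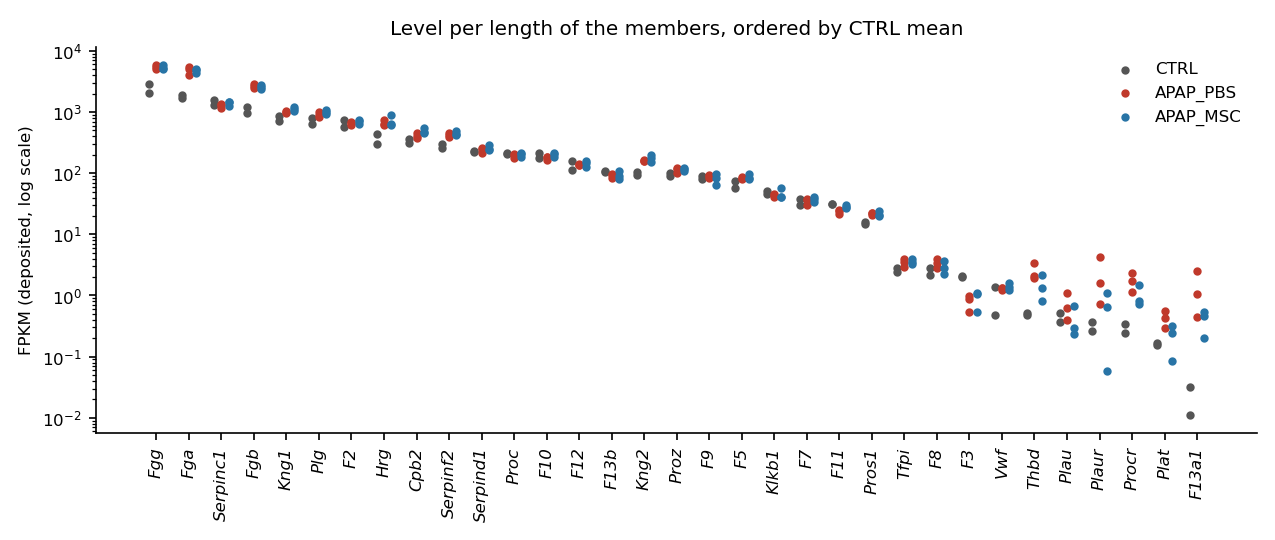
Deposited FPKM of each of the 33 genes (log axis) in every library, ordered by the CTRL mean; each point is 1 library, coloured by group. The fibrinogen genes Fgg, Fga and Fgb stand higher in all 6 APAP libraries than in both CTRL libraries.

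Against CTRL, 7 of the 33 genes were higher in APAP_PBS, 2 were lower and 24 did not pass (edgeR's quasi-likelihood fit, p adjusted by Benjamini-Hochberg over all 12722 genes, threshold 0.05). Of all genes tested, 4.29% were called higher and 5.97% lower in this comparison, against 21.2% and 6.06% of the members; the share called lower is thus near that of all genes. The median log2 fold change of the members was 0.13, and that of all genes 0.03. The 7 that rose were the 3 fibrinogen chains, the factor XIII A subunit F13a1, the thrombin receptor thrombomodulin (Thbd), the protein C receptor Procr and the kininogen Kng2. The 2 that fell were tissue factor (F3) and factor XI (F11). In APAP_MSC against CTRL, 5 rose (Fga, Fgb, Fgg, Kng2 and Hrg) and 1 fell (F3), with 2.52% and 3.32% of all genes called in those directions, a member median of 0.22 and a median of 0.01 over all genes. In APAP_PBS, 13 members stood above CTRL and 9 below it in every library, beside 25% and 22.6% of all genes, and 10 and 7 had an unadjusted p under 0.05, beside 13.4% of all genes in each direction. In APAP_MSC, 14 members stood above and 3 below, beside 17.8% and 17.7% of all genes, and 13 and 3 had an unadjusted p under 0.05, beside 10.6% and 11.1%. Both comparisons share the 2 CTRL libraries, so their values are given side by side and are not independent. When counts were scaled by library size alone, the all-gene median moved from 0.03 to 0.27 in APAP_PBS and from 0.01 to 0.20 in APAP_MSC, and 10 members were then higher in each comparison, while 2 and 0 were lower. Over all genes this scaling also raised the share called higher, to 12.7% in APAP_PBS and 5.93% in APAP_MSC, and lowered the share called lower to 2.92% and 1.86%. The changes below are relative to the TMM scaling. Without CTRL replicate 1 or without CTRL replicate 2, 3 members were higher and 1 lower in APAP_PBS, and 3 higher and 0 lower in APAP_MSC; these fits assume that the remaining CTRL library varies like the other groups. Without CTRL replicate 1 or 2, the shares of all genes called were 1.84% and 1.36% higher and 2.79% and 2.35% lower in APAP_PBS, and 0.901% and 0.922% higher and 1.07% and 1.19% lower in APAP_MSC. In APAP_PBS, 1 member was lower without APAP_PBS replicate 1 or without APAP_PBS replicate 3, beside 2.58% and 2.93% of all genes. Without APAP_MSC replicate 2, 4 were lower in APAP_PBS, beside 7.34%. In APAP_MSC, 3 members were higher without APAP_MSC replicate 1, beside 1.03% of all genes, and 3 were lower without APAP_MSC replicate 2, beside 5.85%. In that comparison 0 were lower without APAP_MSC replicate 1 or 3 or any 1 of the APAP_PBS libraries, beside 1.11% to 2.39%.

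**Figure D2:**
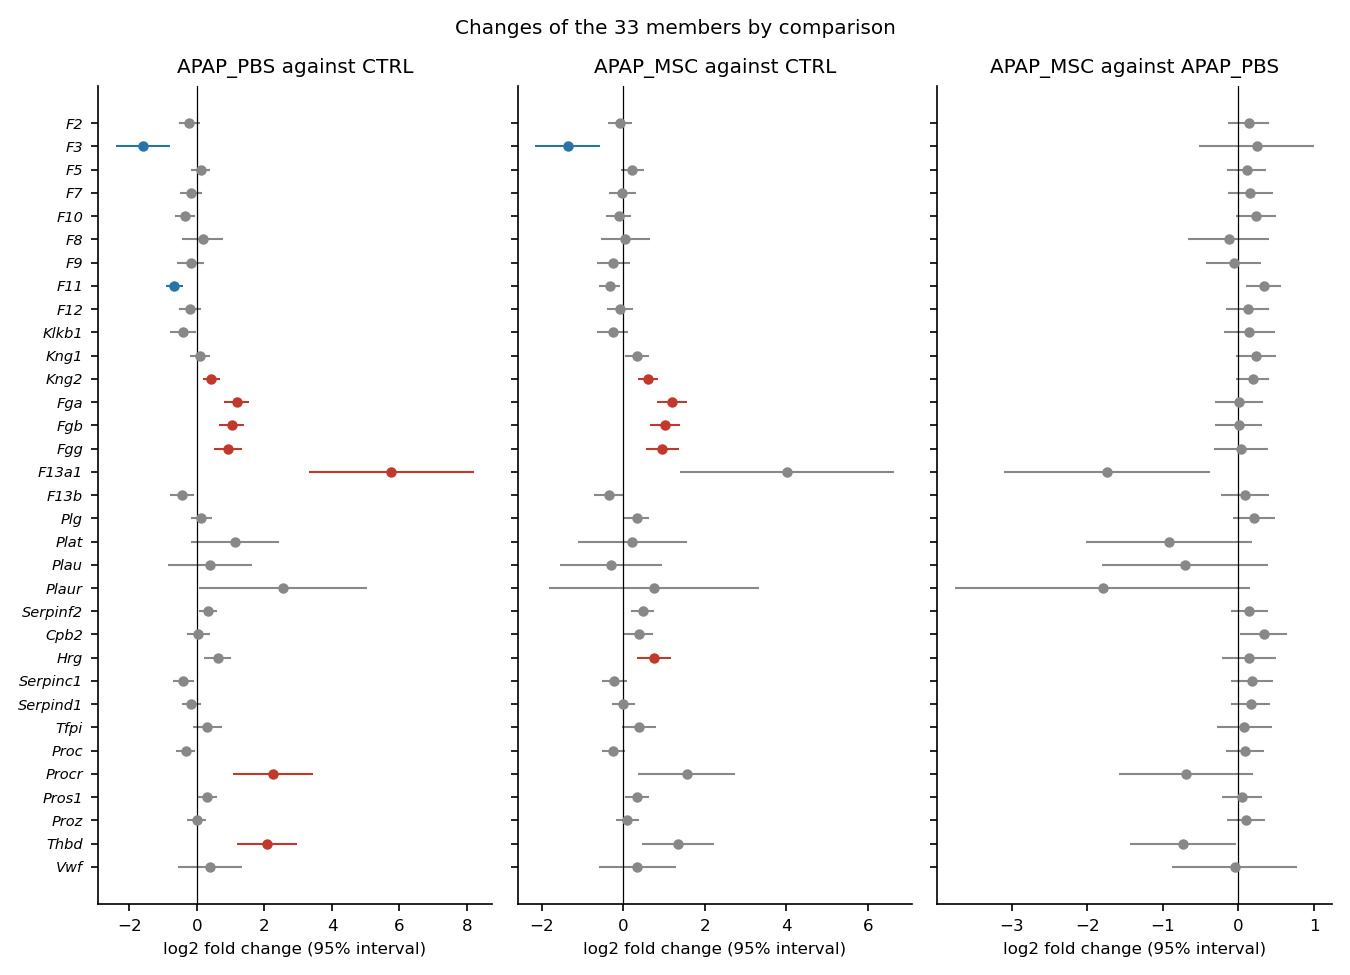
Log2 fold change of the 33 genes in each comparison (points) with 95% intervals (lines), red for called higher, blue for called lower and grey for not called. Fga, Fgb, Fgg and Kng2 lie right of 0 in both comparisons with CTRL, and no gene is coloured in APAP_MSC against APAP_PBS; the fitted F13a1 value rests on 3 CTRL counts and depends on the fit's prior count.

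All 3 fibrinogen chains rose in both APAP groups. Fga, which encodes the alpha chain, stood at 4591 and 3838 CPM in CTRL, at 9950, 7828 and 10986 CPM in APAP_PBS and at 9644, 9347 and 9958 CPM in APAP_MSC. All 6 APAP libraries were above both CTRL libraries. The rise was 1.19 ± 0.17 on the log2 scale in APAP_PBS, or 2.28-fold (edgeR adjusted p = 0.00213), and 1.20 ± 0.17 in APAP_MSC, or 2.29-fold (edgeR adjusted p = 0.00318). Fgb, the beta chain, stood at 5477 and 3981 CPM in CTRL, at 9593, 8697 and 10600 CPM in APAP_PBS and at 10062, 9584 and 9270 CPM in APAP_MSC. Its groups also stood apart, with a rise of 1.03 ± 0.17 in both comparisons (edgeR adjusted p = 0.00433 and 0.00651). Fgg, the gamma chain, stood at 5676 and 3677 CPM in CTRL, at 8774, 8093 and 9778 CPM in APAP_PBS and at 9651, 9112 and 8408 CPM in APAP_MSC. Its CTRL libraries were the farthest apart of the 3 chains, and both still lay below every APAP library. It rose by 0.93 ± 0.19 in APAP_PBS (edgeR adjusted p = 0.0114) and by 0.95 ± 0.19 in APAP_MSC (edgeR adjusted p = 0.0151). Fga and Fgb kept their call in all 16 alternatives of each comparison, among them each scaling and each left-out library. Fgg lost it in APAP_MSC when only the 2 groups were fitted (adjusted p = 0.0578). It was also lost without CTRL replicate 2, at 0.65 (adjusted p = 0.0764) in APAP_PBS and 0.69 (adjusted p = 0.0829) in APAP_MSC, and in APAP_MSC also without APAP_MSC replicate 1, at 0.91 (adjusted p = 0.055).

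**Figure D3:**
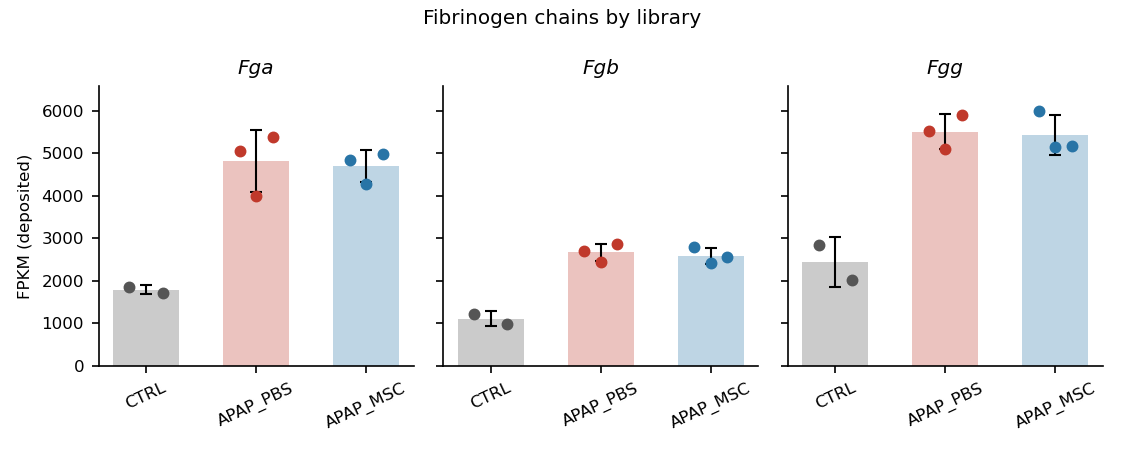
Deposited FPKM of the 3 fibrinogen genes by library (points), with group means (bars) and SD (lines); CTRL n = 2, APAP_PBS and APAP_MSC n = 3 each. For each chain the highest CTRL library lies below the lowest APAP library, and the 2 APAP groups overlap.

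Each fibrinogen molecule holds equal numbers of the 3 chains, but their transcripts were not equal per unit of length. The FPKM ratio of Fga to Fgg was 0.655 and 0.846 in CTRL, 0.917, 0.785 and 0.911 in APAP_PBS and 0.810, 0.834 and 0.960 in APAP_MSC. The ratio of Fgb to Fgg was 0.431 and 0.483 in CTRL, 0.488, 0.480 and 0.484 in APAP_PBS and 0.465, 0.469 and 0.492 in APAP_MSC. Both ratios overlapped between CTRL and the APAP groups. Together the chains made up 52.2% and 42.2% of the summed FPKM of the 33 members in CTRL and 61.5% to 67.5% in the APAP libraries.

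The 3 genes lie side by side on chromosome 3 (GRCm38, GENCODE M21): Fgg at 83007724 to 83015049 on the plus strand, Fga at 83026076 to 83033627 on the plus strand, and Fgb at 83040141 to 83049863 on the minus strand. Their upstream sequences are shown because the 3 genes moved together. They are from RefSeq (GRCm38.p6), 5′ to 3′ on the gene's strand, and cover chr3:83025903-83026075 (plus) for Fga, chr3:83049864-83050113 (minus) for Fgb and chr3:83007474-83007723 (plus) for Fgg. For Fga the 77 bases next to the RefSeq start lie inside the GENCODE gene and are left out. Capitals mark matches, on either strand, to letters used for STAT3 (TTCNNNGAA), for the interleukin-6 response element of acute phase genes (CTGGGAA) and for C/EBP factors (TTGCNNAA).
Fga: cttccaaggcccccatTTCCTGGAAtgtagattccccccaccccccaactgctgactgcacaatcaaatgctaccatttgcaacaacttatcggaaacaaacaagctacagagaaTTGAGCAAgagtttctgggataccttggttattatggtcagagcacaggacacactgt
Fgb: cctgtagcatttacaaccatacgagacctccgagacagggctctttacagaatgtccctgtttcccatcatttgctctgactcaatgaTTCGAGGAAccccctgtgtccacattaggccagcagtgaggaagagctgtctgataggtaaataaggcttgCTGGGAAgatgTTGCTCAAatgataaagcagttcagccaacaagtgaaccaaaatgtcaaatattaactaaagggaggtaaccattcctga
Fgg: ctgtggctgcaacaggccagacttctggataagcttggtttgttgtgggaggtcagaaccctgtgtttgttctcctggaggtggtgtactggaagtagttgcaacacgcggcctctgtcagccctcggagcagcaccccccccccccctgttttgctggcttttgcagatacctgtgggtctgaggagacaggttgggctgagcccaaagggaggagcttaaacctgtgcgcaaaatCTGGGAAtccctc
Counted back from the RefSeq start, Fga held the STAT3 letters from base -234 to -226 and the C/EBP letters from -135 to -128. Fgb held all 3, with the STAT3 letters from -162 to -154, the interleukin-6 letters from -91 to -85 and the C/EBP letters from -80 to -73. Fgg held only the interleukin-6 letters, from -13 to -7. These letters are common: among the 250 bases upstream of 32851 RefSeq promoters, 7.02% held the STAT3 letters, 9.1% the interleukin-6 letters and 9.56% the C/EBP letters. Of the 33 members, 26 had a promoter in this table, and 4, 4 and 9 of them held the respective letters, with overlapping matches of the first 2 in F9. The motif of the hepatocyte factor HNF1 was in 0.371% of promoters and in 1 member, F13b. A match describes the sequence and is not evidence of binding.

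Factor XIII, which crosslinks fibrin, has an A subunit (F13a1) made by macrophages and platelet precursors and a B subunit (F13b) made by hepatocytes, and the A subunit was the one called. F13a1 had 2 and 1 counts in CTRL, 167, 94 and 29 in APAP_PBS and 34, 18 and 44 in APAP_MSC. All 6 APAP libraries were above both CTRL libraries. From the summed counts, the level in APAP_PBS was 57.9 times that in CTRL, with an exact 95% interval of 19.6 to 283 that covers counting error only. For APAP_MSC the ratio was 17.3, with an interval of 5.76 to 85.6. The test called F13a1 in APAP_PBS (edgeR adjusted p = 0.0132) and not in APAP_MSC (edgeR adjusted p = 0.0812). The APAP_PBS call was lost without CTRL replicate 1 (adjusted p = 0.0823), without CTRL replicate 2 (adjusted p = 0.127) and with limma on log2(FPKM + 1), a scale that compresses low genes (adjusted p = 0.0605). Among the fits without a replicate block, the APAP_MSC value was called without APAP_PBS replicate 1 or 3 (adjusted p = 0.0215 and 0.0318) and by DESeq2 (adjusted p = 0.00171), and with only the 2 groups fitted (adjusted p = 0.0304). F13b stood at 300 and 261 CPM in CTRL, 184, 218 and 214 CPM in APAP_PBS and 201, 268 and 184 CPM in APAP_MSC, with log2 values of -0.45 ± 0.16 and -0.36 ± 0.16 against CTRL that did not pass (edgeR adjusted p = 0.104 and 0.220).

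Of the 5 genes of the extrinsic and common route, only F3 was called. F3, tissue factor, stood at 4.63 and 3.95 CPM in CTRL, at 1.53, 1.70 and 0.936 CPM in APAP_PBS and at 1.92, 2.10 and 0.973 CPM in APAP_MSC. The lowest CTRL library was above all 6 APAP libraries. F3 fell by 1.61 ± 0.36 on the log2 scale in APAP_PBS (edgeR adjusted p = 0.0192) and by 1.37 ± 0.36 in APAP_MSC (edgeR adjusted p = 0.0484). These levels rest on 16 to 84 counts per library. In APAP_PBS the call was lost without CTRL replicate 1 or 2 (adjusted p = 0.0938 and 0.0686) and without APAP_PBS replicate 1 or 3 (adjusted p = 0.0535 and 0.0644). The call in APAP_MSC held in 5 of 16 alternatives, with adjusted p between 0.0177 and 0.209. It was lost with library size as the only scaling (-1.19, adjusted p = 0.062) and without any 1 library other than APAP_MSC replicate 2.

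The other 4 genes of that route, made by hepatocytes, were not called. F2, prothrombin, stood at 1328 and 1544 CPM in CTRL, at 1156, 1228 and 1313 CPM in APAP_PBS and at 1197, 1474 and 1394 CPM in APAP_MSC. The APAP_PBS libraries all lay below CTRL and the APAP_MSC libraries overlapped it, with log2 values of -0.22 (95% interval -0.52 to 0.08) and -0.08 (-0.38 to 0.22). By FPKM the APAP_PBS libraries, at 622 to 679, lay between the 2 CTRL libraries, at 570 and 728. F5, the cofactor factor V, was at 546 ± 55.9, 589 ± 39.3 and 634 ± 56.9 CPM (SD) in CTRL, APAP_PBS and APAP_MSC. F7, the protease that tissue factor binds, was at 70.1 ± 7.16, 61.7 ± 8.46 and 68.8 ± 9.73 CPM. F10, the protease that makes thrombin, was at 413 ± 33.2, 324 ± 25.4 and 380 ± 47.9 CPM, and its APAP_PBS value of -0.35 ± 0.14 did not pass (edgeR adjusted p = 0.128).

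In the intrinsic route, F11 was lower in APAP_PBS, and the kininogen Kng2 was higher in both APAP groups. F11, the protease that activates factor IX, stood at 81.2 and 76.2 CPM in CTRL, at 45.2, 49.4 and 53.6 CPM in APAP_PBS and at 63.4, 66.4 and 56.8 CPM in APAP_MSC. The 3 groups did not overlap: CTRL was highest, APAP_MSC between and APAP_PBS lowest. F11 fell by 0.67 ± 0.11 on the log2 scale in APAP_PBS, to 0.628 of its CTRL level (edgeR adjusted p = 0.00579), and this call held in all 16 alternatives (-0.73 to -0.42). In APAP_MSC the value of -0.34 ± 0.11 did not pass (edgeR adjusted p = 0.111). Kng2, 1 of 2 mouse kininogen genes, stood at 182 and 178 CPM in CTRL, at 233, 244 and 246 CPM in APAP_PBS and at 269, 254 and 301 CPM in APAP_MSC. Here too the 3 groups did not overlap, with CTRL lowest. Kng2 rose by 0.42 ± 0.11 in APAP_PBS (edgeR adjusted p = 0.0393) and by 0.61 ± 0.11 in APAP_MSC (edgeR adjusted p = 0.0127). Among the fits without a replicate block, the APAP_PBS call was lost without either CTRL library, without any 1 of the APAP_PBS libraries and without APAP_MSC replicate 1 (adjusted p = 0.0564 to 0.154), and the APAP_MSC call without CTRL replicate 1 or 2 (adjusted p = 0.0694 and 0.0705) and with only the 2 groups fitted (adjusted p = 0.0653).

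Its close copy Kng1, the more abundant kininogen, was not called, at 1787 ± 125, 1916 ± 140 and 2243 ± 217 CPM in CTRL, APAP_PBS and APAP_MSC. Counts of both kininogens were not whole in 7 of the 8 libraries, so reads were shared out between genes and each value alone is uncertain; the same held for Plg in 7 libraries and for Klkb1 and Serpinc1 in 8. Klkb1, plasma prekallikrein, which frees bradykinin from kininogen, was at 288 ± 2.41, 217 ± 14.0 and 240 ± 59.9 CPM (edgeR adjusted p = 0.152 and 0.410 against CTRL). F12, which starts the contact route, was at 295 ± 47.5, 256 ± 12.3 and 279 ± 37.9 CPM. F9, the factor missing in hemophilia B, was at 263 ± 38.5, 231 ± 14.8 and 221 ± 54.7 CPM.

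F8, the factor missing in hemophilia A, is made mainly by endothelial cells. It stood at 18.7 and 22.6 CPM in CTRL, at 27.5, 19.4 and 23.1 CPM in APAP_PBS and at 20.2, 29.3 and 14.6 CPM in APAP_MSC, and its groups overlapped. The log2 values were 0.17 (95% interval -0.44 to 0.77) in APAP_PBS and 0.04 (-0.56 to 0.65) in APAP_MSC. Vwf, its carrier and the protein that tethers platelets, stood at 2.99 and 10.9 CPM in CTRL, 8.93, 9.98 and 9.13 CPM in APAP_PBS and 7.64, 10.1 and 9.34 CPM in APAP_MSC. The 2 CTRL libraries lay on either side of all the others, and the interval of its APAP_PBS value of 0.39 (-0.56 to 1.34) was correspondingly wide.

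Among the anticoagulants, the cell-surface receptors of the protein C pathway rose in APAP_PBS and none of the plasma inhibitors was called. Thbd, thrombomodulin, which turns thrombin into an activator of protein C, stood at 2.06 and 2.02 CPM in CTRL, at 11.7, 6.83 and 7.49 CPM in APAP_PBS and at 4.72, 3.13 and 7.67 CPM in APAP_MSC. All APAP libraries were above CTRL, and the APAP groups overlapped. It rose by 2.08 ± 0.40 on the log2 scale in APAP_PBS, or 4.23-fold (edgeR adjusted p = 0.0113); the APAP_MSC value of 1.35 ± 0.40 did not pass (edgeR adjusted p = 0.0787) but was called without APAP_MSC replicate 2 (1.62, adjusted p = 0.0129) and by DESeq2 (adjusted p = 0.0124). Procr, the endothelial protein C receptor, stood at 0.641 and 0.423 CPM in CTRL, at 3.50, 1.41 and 2.63 CPM in APAP_PBS and at 1.11, 1.16 and 2.30 CPM in APAP_MSC. The groups again did not overlap with CTRL, whose libraries held 9 counts each. It rose by 2.25 ± 0.54 in APAP_PBS, or 4.76-fold (edgeR adjusted p = 0.0233), and its APAP_MSC value was 1.56 ± 0.54 (edgeR adjusted p = 0.120). The Thbd call in APAP_PBS was lost without CTRL replicate 1 or 2 (adjusted p = 0.0736 and 0.0912). The Procr call was lost without CTRL replicate 1 or 2 (adjusted p = 0.0778 and 0.161) and without APAP_PBS replicate 1 or 3 (adjusted p = 0.0802 and 0.0627).

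Serpinc1, antithrombin, the main inhibitor of thrombin, stood at 1846 and 2034 CPM in CTRL, at 1334, 1536 and 1538 CPM in APAP_PBS and at 1467, 1856 and 1672 CPM in APAP_MSC. All APAP_PBS libraries lay below CTRL, with a log2 value of -0.40 ± 0.14 that did not pass (edgeR adjusted p = 0.0916). By FPKM these 2 groups overlapped, at 1309 and 1598 in CTRL and 1186, 1351 and 1302 in APAP_PBS. Proc, protein C, stood at 337 and 325 CPM in CTRL, at 236, 274 and 281 CPM in APAP_PBS and at 247, 301 and 291 CPM in APAP_MSC. All 6 APAP libraries lay below CTRL, with values of -0.33 ± 0.13 and -0.24 ± 0.13 (edgeR adjusted p = 0.130 and 0.302). By FPKM the groups overlapped, with 204 and 216 in CTRL, up to 207 in APAP_PBS and up to 212 in APAP_MSC. The others had mixed signs: against CTRL in APAP_PBS, Serpind1 (heparin cofactor II) was at -0.16 ± 0.13, Proz (protein Z) at 0.00 ± 0.13, Pros1 at 0.29 ± 0.13 and Tfpi at 0.31 ± 0.19.

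**Figure D4:**
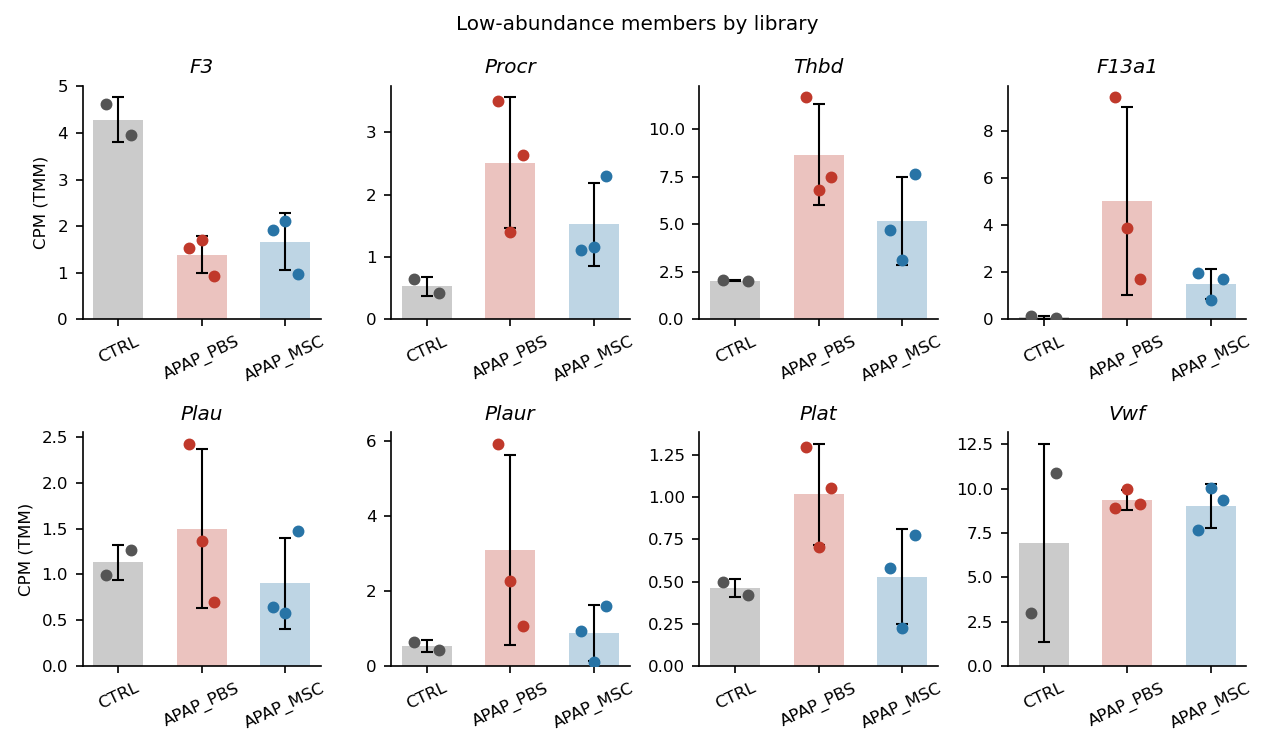
CPM (TMM) of 8 low-abundance members by library (points), with group means (bars) and SD (lines); CTRL n = 2, APAP_PBS and APAP_MSC n = 3 each. F3 is lower in every APAP library than in CTRL, Procr, Thbd and F13a1 are higher, and the first APAP_PBS library holds the highest value of Procr, Thbd, F13a1, Plau, Plaur and Plat.

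Of the 7 genes of clot dissolution and its control, Hrg was the one called, in APAP_MSC. Plg, plasminogen, stood at 2054 and 2314 CPM in CTRL, at 2168, 2324 and 2657 CPM in APAP_PBS and at 2458, 2931 and 2828 CPM in APAP_MSC. The APAP_PBS libraries overlapped CTRL (0.13 ± 0.14) and the APAP_MSC libraries did not (0.33 ± 0.14, edgeR adjusted p = 0.214). Its activators Plat (tissue type) and Plau (urokinase) were at 0.461 ± 0.0533 and 1.13 ± 0.193 CPM in CTRL (SD). In APAP_PBS Plat was at 1.02 ± 0.299 CPM and Plau at 2.43, 1.37 and 0.702 CPM, and neither was called in any comparison. Plat rested on 5 to 23 counts per library and Plau on 11 to 43. Plaur, the urokinase receptor, stood at 0.641 and 0.423 CPM in CTRL, at 5.94, 2.28 and 1.05 CPM in APAP_PBS and at 0.933, 0.0895 and 1.60 CPM in APAP_MSC. These levels rested on 9 and 9 counts in CTRL, 105, 55 and 18 in APAP_PBS and 16, 2 and 41 in APAP_MSC. The APAP_PBS libraries were above CTRL and far apart among themselves, and the value of 2.55 ± 1.07 did not pass (edgeR adjusted p = 0.176). Hrg, histidine-rich glycoprotein, which binds plasminogen and heparin, stood at 611 and 814 CPM in CTRL, at 1039, 996 and 1239 CPM in APAP_PBS and at 1046, 1093 and 1461 CPM in APAP_MSC. All APAP libraries were above CTRL. The 2 APAP groups overlapped and did not differ at the threshold (0.14 ± 0.16, edgeR adjusted p = 0.898). Hrg rose by 0.75 ± 0.19 in APAP_MSC (edgeR adjusted p = 0.0391); in APAP_PBS its value of 0.62 ± 0.18 did not pass (edgeR adjusted p = 0.0577), though it did in 8 of 16 alternatives. The APAP_MSC call was lost in 9 of 16, among them each left-out library except APAP_MSC replicate 2, with adjusted p up to 0.245. The inhibitor of plasmin Serpinf2 was at 0.33 ± 0.13 and 0.47 ± 0.13 against CTRL (edgeR adjusted p = 0.124 and 0.0528), and Cpb2, a carboxypeptidase that protects fibrin, at 0.04 ± 0.16 and 0.38 ± 0.16 (edgeR adjusted p = 0.893 and 0.197).

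Whether the injected MSCs altered the liver after APAP is addressed by APAP_MSC against APAP_PBS, where 0 of the 33 members were called by edgeR, DESeq2 or limma. By edgeR 0% of all genes were called higher and 0.00786% lower, so the members' count is near the background. At an unadjusted p under 0.05, edgeR had 2 members higher (F11 and Cpb2) and 2 lower (F13a1 and Thbd), beside 2.92% and 3.7% of all genes. The member median was 0.10 and that of all genes -0.01. The fibrinogen genes had log2 values of 0.01 (95% interval -0.31 to 0.33) for Fga, 0.00 (-0.31 to 0.32) for Fgb and 0.03 (-0.33 to 0.38) for Fgg. These intervals include modest changes in either direction. F11 was at 0.33 (0.10 to 0.56, adjusted p = 0.696), and Cpb2 at 0.33 (0.02 to 0.64, adjusted p = 0.743). F13a1 was at -1.74 (-3.10 to -0.38, adjusted p = 0.698), Thbd at -0.73 (-1.43 to -0.04, adjusted p = 0.743), Procr at -0.69 (-1.58 to 0.19), Plaur at -1.79 (-3.74 to 0.15) and Plat at -0.92 (-2.01 to 0.17). The values of Plaur and Plat rested on 2 to 105 and on 5 to 23 counts per library. In 3 members, F11, Kng2 and Cpb2, every APAP_MSC library was above every APAP_PBS library, and in 0 every one was below; of all genes, 6.81% and 7.04% stood apart in these directions.

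Of the 9 members under 15 CPM in every group mean (F3, F13a1, Plat, Plau, Plaur, Tfpi, Procr, Thbd and Vwf), 7 were highest in replicate 1 among the APAP_PBS libraries, while 20 of the other 24 members were highest in replicate 3. In APAP_MSC, replicate 2 held the lowest value of F13a1, Plat, Plau, Plaur and Thbd, and the highest value of 15 of the 24 more abundant members. Replicate 1 of APAP_PBS also had the highest summed markers of several other cell types. The 6 neutrophil markers summed to 23.6, 10.1 and 4.86 CPM in APAP_PBS, to between 2.21 and 2.92 CPM in CTRL and to between 3.39 and 5.25 CPM in APAP_MSC; S100a8 and Retnlg were called higher in APAP_PBS against CTRL, and Ly6g, a defining marker, was at 0 in 7 of 8 libraries. The 8 monocyte and macrophage markers summed to 255, 147 and 155 CPM in APAP_PBS, to 112 and 176 CPM in CTRL and to 117, 162 and 166 CPM in APAP_MSC, and 2 of 8 (Cd68 and Ccr2) were called higher in APAP_PBS against CTRL. The 8 endothelial markers, none of which edgeR called against CTRL, summed to 284, 208 and 237 CPM in APAP_PBS, to 178 and 223 CPM in CTRL and to between 232 and 287 CPM in APAP_MSC. Of the 8 platelet and megakaryocyte markers 5 did not pass the filter, Gp6 was at 0 in every library, the sums were 11.9, 6.38 and 8.25 CPM in APAP_PBS, 2.28 and 3.71 CPM in CTRL and 6.04 to 7.47 CPM in APAP_MSC, and Itgb3 was called higher in APAP_PBS (1.70 ± 0.33, edgeR adjusted p = 0.00907). None of the 5 Kupffer cell markers was called; they summed to 161 to 266 CPM in APAP_PBS, 173 to 233 CPM in CTRL and 160 to 269 CPM in APAP_MSC. The 5 stellate cell markers summed to 185 to 206 CPM over all libraries, and Des was called higher in APAP_PBS. The part of these cells in the F13a1, Thbd, Procr and Plaur values was not tested.

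Genes around the pathway were read from a list of 40, of which 35 were tested. In APAP_PBS 9 were higher and 4 lower than in CTRL, or 25.7% and 11.4%, beside 4.29% and 5.97% of all genes tested. In APAP_MSC 10 were higher and 1 lower than in CTRL, or 28.6% and 2.86%, beside 2.52% and 3.32% of all genes. The share lower in APAP_MSC was thus near that of all genes. The medians of the listed genes were 0.34 and 0.27. In APAP_MSC against APAP_PBS edgeR called 0, with 3 higher and 5 lower at an unadjusted p under 0.05; limma called 0 and DESeq2 1, which was lower. Of the 9 further inhibitors, 7 were tested, and Serpina10, which inhibits factor Xa together with protein Z, rose by 0.76 ± 0.13 in APAP_PBS and 0.83 ± 0.13 in APAP_MSC (edgeR adjusted p = 0.00659 and 0.0066). Pzp, a broad protease inhibitor of mouse plasma, was the other one called, in APAP_MSC (0.59 ± 0.14, edgeR adjusted p = 0.0376).

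Among 14 receptors and cofactors, of which 11 were tested, Fgl1, a fibrinogen-like protein secreted by hepatocytes, rose by 2.61 ± 0.17 in APAP_PBS and 2.83 ± 0.18 in APAP_MSC. Tgm2, a crosslinking transglutaminase, rose by 1.08 ± 0.15 and 0.89 ± 0.15, and Fn1, fibronectin, by 0.68 ± 0.18 and 0.73 ± 0.18. Vtn, vitronectin, an adhesive plasma protein, was called in APAP_MSC (0.58 ± 0.14) and not in APAP_PBS (0.39 ± 0.14), and the 2 APAP groups did not differ at the threshold (0.20 ± 0.12). F2r, the main thrombin receptor, fell by 0.64 ± 0.13 in APAP_PBS and by 0.69 ± 0.13 in APAP_MSC. Of 7 genes for the vitamin K cycle and factor secretion, 2 fell in APAP_PBS: Vkorc1l1, a vitamin K reductase, by 0.61 ± 0.11 and Lman1, which carries factors V and VIII out of the endoplasmic reticulum, by 0.50 ± 0.13. In APAP_MSC edgeR called 0 of the 7, with 1 lower at an unadjusted p under 0.05; DESeq2 called 1 lower and limma 0.

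Of 10 regulators of liver clotting genes, 5 were higher in APAP_PBS and 1 lower, and 4 were higher in APAP_MSC. Stat3 rose by 1.31 ± 0.12 in APAP_PBS and 1.06 ± 0.12 in APAP_MSC. Its target and feedback inhibitor Socs3 rose by 3.05 ± 0.36 and 2.36 ± 0.36, and Il6st, the signalling chain of the interleukin-6 receptor, by 0.74 ± 0.14 and 0.60 ± 0.14. Nr1i3, the nuclear receptor CAR, rose 2.15-fold in APAP_PBS and 2.24-fold in APAP_MSC. In APAP_PBS, Cebpb, which drives acute phase genes, rose by 1.08 ± 0.22 and Cebpa, which maintains hepatocyte genes, fell by 0.58 ± 0.15. Their APAP_MSC values of 0.27 ± 0.22 and -0.24 ± 0.15 did not pass. In APAP_MSC against APAP_PBS, Cebpb was at -0.80 ± 0.19 and Cebpa at 0.33 ± 0.14 (edgeR adjusted p = 0.530 and 0.743). There edgeR called 0 of the 10 regulators, and DESeq2 called 1 lower, beside 0.132% of all genes.

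Several members are neighbours on a chromosome. Fgg, Fga and Fgb, with 11026 and 6513 bases between neighbours, all rose. F7, F10 and Proz, with 1498 and 4237 bases between them on chromosome 8, were not called against CTRL. F11 and Klkb1, which arose by gene duplication and lie 4657 bases apart on chromosome 8, had log2 values of -0.67 and -0.41 in APAP_PBS, of which the first passed. Hrg, Kng2 and Kng1, with gaps of 24197 and 28382 bases on chromosome 16, had values of 0.62, 0.42 and 0.10, of which that of Kng2 passed.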

How the data were processed

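Liver mRNA of 8 libraries (oligo(dT) beads) was measured. For each of 22183 mouse genes the authors deposited, in 1 table, a count estimate and a length-scaled value. The deposited counts are estimated counts, by the file's columns and values: 6.39% to 7.46% per library were not whole, and all were rounded before testing. The authors' FPKM values (fragments per kilobase of gene and per library size) served for levels between genes and as an alternative scale. The submitters' processing notes name fastp 0.18.0. The aligner, quantifier, strand setting and build are not stated there or in the labels. Symbols (22128 of 22183 IDs) and GRCm38 coordinates came from GENCODE M21.

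All 8 libraries entered 1 edgeR 4.0.16 fit (R 4.3.3; filterByExpr, TMM, robust glmQLFit, 1 coefficient per group), with Benjamini-Hochberg adjustment over 12722 genes. A standard error is the size of the log2 fold change divided by the root of F, and 95% intervals use the fit's degrees of freedom. An undetected gene could lie at up to 3 counts, or 0.122 to 0.184 CPM; such limits cover counting error only. Alternatives were library size alone, no filter, a filter of 1 CPM in 5 samples, only the 2 groups compared, a replicate block, each library left out, DESeq2 1.42.0, and limma 3.58.1 on log2(FPKM + 1) or log2(FPKM + 0.1). Members and lists were chosen with earlier results of these data known. Values in every library are given for each called member and for those defining a role, and each other list names up to 6 called genes; Plaur, F13b and the values of Plau were added after being seen. The values of 1 gene of the surrounding lists are not reported here.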

Additional observations from a re-analysis of the deposited data

How the results depend on the processing

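Of 15 called values of single members, 5 held in all 16 alternatives (Fga and Fgb in both comparisons with CTRL, and F11 in APAP_PBS), and 0 changed sign. Of 1335 alternative values of members that were not called, 51 were called with the same sign and 0 with the other. In APAP_PBS against CTRL, 5 members were lower when only the 2 groups compared were fitted (2 in the main analysis). In APAP_MSC against CTRL the main counts were 5 higher and 1 lower; they were 10 and 0 with library size only, 3 and 0 with only the 2 groups compared, 10 higher with log2(FPKM + 1), 11 and 0 with log2(FPKM + 0.1), and 8 higher with DESeq2. Calls over all genes moved too: in APAP_MSC the shares higher and lower were 2.52% and 3.32% in the main analysis, 5.93% and 1.86% with library size only, 0.99% and 1.36% with only the 2 groups, 3.74% and 1.55% with log2(FPKM + 1), 4.57% and 1.58% with log2(FPKM + 0.1), and 4.31% and 5.78% with DESeq2. In APAP_PBS the share lower went from 5.97% to 8.79% with only the 2 groups. Leaving out 1 library gave 3 to 8 higher and 1 to 4 lower in APAP_PBS, and 3 to 7 higher and 0 to 3 lower in APAP_MSC, while 1.36% to 6.31% of all genes were higher and 2.35% to 7.34% lower in APAP_PBS, and 0.901% to 5.24% and 1.07% to 5.85% in APAP_MSC; APAP_MSC against APAP_PBS kept 0 and 0 in every alternative. The cause of these shifts was not tested, except that leaving out libraries leaves fewer samples.

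Groups share replicate numbers. Deviations of same-numbered libraries from their group means had correlations of -0.134 to 0.193. Between APAP_MSC and APAP_PBS, 0 of 6 libraries correlated best with their own number. Each group mean rests on only 2 or 3 libraries, so this check cannot exclude an effect shared by replicate number. In CTRL, APAP_PBS and APAP_MSC, replicate 1 had totals of 16459393, 16532941 and 16261191 counts. Replicate 2 had 22712252, 22543929 and 23314223. Replicate 3 had 16626814 in APAP_PBS and 24516470 in APAP_MSC. With the replicate block, 6 members were higher and 2 lower in APAP_PBS and 4 and 0 in APAP_MSC, beside 2.62% and 3.62% of all genes in APAP_PBS and 1.06% and 1.46% in APAP_MSC. The block ended the call of Kng2 in APAP_PBS (adjusted p = 0.109) and those of Kng2, F3 and Hrg in APAP_MSC (adjusted p = 0.052, 0.0913 and 0.0725), and F13a1 was then called in APAP_MSC (adjusted p = 0.043). All members passed the main filter, while the stricter one left 30. Of 40 surrounding genes, the edgeR results held 35, the DESeq2 results 40 and those of limma on log2(FPKM + 1) 36. In that order, APAP_PBS had 9, 15 and 15 higher and 4, 5 and 0 lower than CTRL. Beside them, 4.29%, 5.38% and 8.91% of all genes were higher and 5.97%, 7.18% and 2.47% lower. APAP_MSC had 10, 13 and 13 higher and 1, 3 and 0 lower. Of all genes, 2.52%, 4.31% and 3.74% were higher there and 3.32%, 5.78% and 1.55% lower. The lowest members rest on few counts, and 2 CTRL libraries limit every comparison with CTRL.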
